A study of Mus musculus with 90 samples.

Results

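F2rl1, Sphk1, Runx1 and Uck2 are 4 of the 55011 genes in the deposited count table. They were chosen by a measured value, their rise in muscle mesenchymal stromal cells (MmSCs) of wild-type mice 1 day after acute exercise (group WT_exe, treatment AEX) over sedentary mice (WT_sed, treatment SED). That contrast is therefore described here without a test, and the genes were tested in the other groups of the series. MmSCs are the connective tissue cells between muscle fibres, sorted here from hindlimb muscle as PDGFRa+ Sca1+ CD31- CD45- cells at 1000 cells a library. The whole tissues were sequenced from 2 ng of RNA a library.

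The series holds 90 libraries in 29 groups. WT_sed and WT_exe have 3 libraries each, as do wild-type trained mice (EXT) and sedentary mice of their own cohort. These wild-type mice were 8 to 10 weeks old. A further exercise cohort compared mice that carry Pdgfra-Cre with either wild-type Piezo1 (Piezo1 WT) or floxed Piezo1 (Piezo1 FL), sedentary or on day 1 after AEX, with 3 libraries a group. Cre is thus carried by the controls too, and the floxed allele is targeted in cells that express Pdgfra, not in every cell of a tissue. MmSCs of the same genotypes were sorted on day 1 after cardiotoxin (CTX), which kills muscle fibres and starts their repair, with 3 libraries a genotype. Sorted MmSCs were also cultured with 25 uM Yoda1, an agonist of the mechanosensitive channel Piezo1. The 2 h Yoda1 cells (2 libraries) and their vehicle, titled 0 h (3 libraries), were Pdgfra-Cre Piezo1 WT. The 4 h and 6 h Yoda1 cells and their vehicle, titled Unstim, had 3 libraries each and no stated genotype. Whole tibialis anterior (TA) muscle was taken 1, 3 and 7 days after CTX from Piezo1 WT mice and from Piezo1 FL mice, which the TA titles call KO. Day 1 had 4 libraries a genotype, and days 3 and 7 had 3. Uninjured quadriceps (3 libraries a genotype), liver (4) and heart (3) came from sedentary Piezo1 WT and FL mice, and heart (3) also from day 3 after CTX to skeletal muscle. Nothing in the labels says that replicates of a group are separate animals, so p-values measure the spread between these libraries, which may be technical.

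The 4 genes belong to separate pathways. F2rl1 encodes protease-activated receptor 2 (PAR2), a G protein-coupled receptor that is switched on when a serine protease such as trypsin or mast cell tryptase cuts its outer end. Sphk1 encodes sphingosine kinase 1, which makes the lipid messenger sphingosine 1-phosphate. That lipid leaves the cell and acts through the S1pr receptors. Runx1 encodes a DNA-binding transcription factor that works with the partner Cbfb, is known best from blood formation, and is induced in injured or denervated muscle. Uck2 encodes uridine-cytidine kinase 2, the entry step of pyrimidine salvage, by which cells reuse uridine and cytidine for RNA.

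In mm10 (GENCODE M21), F2rl1 lies at chr13:95511732-95525227 on the minus strand and Sphk1 at chr11:116530925-116536674 on the plus strand. Runx1 lies at chr16:92601466-92826149 and Uck2 at chr1:167222883-167285320, both on the minus strand. The merged exons span 2741 bases for F2rl1, 4774 for Sphk1, 12025 for Runx1 and 5464 for Uck2. Counts were summed over whole genes, so the alternative promoters of Sphk1 and Runx1 cannot be told apart in them.

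RefSeq promoter windows on GRCm38.p6 (250 bases before to 50 after a start site) were matched for Sphk1 (5 windows), Runx1 (2) and Uck2 (1). Upstream stretches outside annotated exons are given as description only. The genes were chosen for their rise in WT_exe, so nothing on shared control is read from that rise. The stretches are written 5′ to 3′ on the gene's strand, with capitals marking a motif match. The first is the stretch before the Sphk1 start sites at 116532444 and 116532451, chr11:116532194-116532443 (plus strand), with the E-box CACGTG. The second is the stretch before the downstream Runx1 start site, chr16:92697330-92697579 (minus strand), with the TEAD motif GGAATG. The last is the stretch of chr1:167285321-167285377 (minus strand) at Uck2, with no match.
Sphk1: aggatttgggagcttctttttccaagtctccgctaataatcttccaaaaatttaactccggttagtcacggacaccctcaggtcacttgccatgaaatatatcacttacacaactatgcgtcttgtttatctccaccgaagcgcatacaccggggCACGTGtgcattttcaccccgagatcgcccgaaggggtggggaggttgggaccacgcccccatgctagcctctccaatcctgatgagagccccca
Runx1: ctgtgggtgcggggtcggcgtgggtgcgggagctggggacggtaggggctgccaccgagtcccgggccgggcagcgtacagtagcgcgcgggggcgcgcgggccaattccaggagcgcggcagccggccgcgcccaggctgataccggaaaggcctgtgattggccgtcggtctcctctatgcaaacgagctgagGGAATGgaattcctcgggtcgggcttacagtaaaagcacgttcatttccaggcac
Uck2: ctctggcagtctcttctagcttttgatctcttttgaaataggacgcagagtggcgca

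The search covered 10 motifs on both strands of the full 300-base windows, where overlapping windows share matches. Sphk1 windows held AP-1 (TGANTCA), E-box, TEAD, TATA box (TATAAA), NF-kB and RUNX (TGTGGT or TGCGGT) matches. The Sphk1 AP-1 match lay at chr11:116531787-116531793, 50 bases before the start site at 116531837. Runx1 windows held TEAD, E-box and RUNX matches, and the Uck2 window held none of the 10. No motif was thus found in windows of all 3 genes. Of 32817 windows of the same length, 7.81% held AP-1, 7.15% the E-box, 14.7% TEAD, 13.6% the TATA box, 4.5% NF-kB and 22.4% RUNX. The other 4 motifs, CRE (TGACGTCA), the CArG box, the ATF4 composite (TGATGNAA) and EGR (GCGTGGGCG), were found in none of the members' windows, against 1.79%, 1.63%, 3.97% and 0.612% of all windows.

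Levels are given as CPM, a gene's count scaled to a common library total, with no correction for gene length. For the members, Piezo1 and the markers, each cohort or tissue was scaled in a fit of its own. The comparison and order of stromal groups used 1 scaling over all stromal libraries instead. Levels from separate fits are thus not on 1 scale, and fold changes across them come from joint fits. Stromal libraries had total counts of 1806248 to 10258234, whole muscle 4051973 to 10226407, and heart and liver 27461930 to 38376123. Upper limits given for 0 counts cover counting error only, while the 95% intervals of fold changes, from edgeR's fit, also take in the spread between libraries. All 12 stromal markers were detected in every WT_sed library, and the summed level of that list was 172056 to 181479 CPM in WT_sed and 177082 to 213983 CPM in Piezo1 WT SED. Ptprc, a leukocyte marker, reached at most 2.1 CPM in WT_sed. Piezo1 counts did not go 1 way with the label. Piezo1 was at 38.8 to 47.7 CPM in Piezo1 WT SED and 47.5 to 78.3 CPM in Piezo1 FL SED, and at 50.8 to 60.1 against 57.8 to 83.6 CPM after AEX. After CTX every FL library (54.7, 54.5 and 52.01 CPM) was below every WT library (59.1, 68.8 and 68.0 CPM). Counts over a whole gene do not check a deletion of part of it, so WT and FL below are the libraries labelled so.

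In the contrast that chose the genes, every WT_exe library was above every WT_sed library for all 4. F2rl1 was at 3.3, 4.83 and 3.29 CPM in WT_sed and at 18.0, 67.2 and 42.0 CPM in WT_exe. Sphk1 was at 1.35, 2.11 and 4.39 CPM against 9.91, 28.4 and 30.0 CPM. Runx1 was at 3.6, 3.62 and 2.2 CPM against 11.1, 24.9 and 23.8 CPM. The first WT_exe library was the lowest of its group for each of the 4 genes. Uck2 was at 7.65, 9.65 and 7.32 CPM against 16.0, 50.01 and 38.7 CPM. The log2 fold changes were 3.46, 3.14, 2.64 and 2.08 in that order of genes, placed 4, 6, 8 and 10 among the 33 genes called higher. The background was 0.736% of 12777 genes called, and nothing is read from the members' 4 of 4. By adjusted p, Pwp2 was the last gene inside the call (log2 fold change 0.88, adjusted p = 0.0495 by edgeR's quasi-likelihood test) and Mthfd1l the first outside (1.72, 0.0532). The choice is sensitive to the libraries: without a single library in turn, edgeR called between 1 gene (without the first or the second WT_sed library) and 975 genes (without the first WT_exe library). All 4 members lost the call without the first or the second WT_sed library. F2rl1, Runx1 and Uck2 lost it without the third WT_sed library. Without the second WT_exe library Sphk1, Runx1 and Uck2 lost it, and without the third F2rl1, Sphk1 and Uck2.

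**Figure D1:**
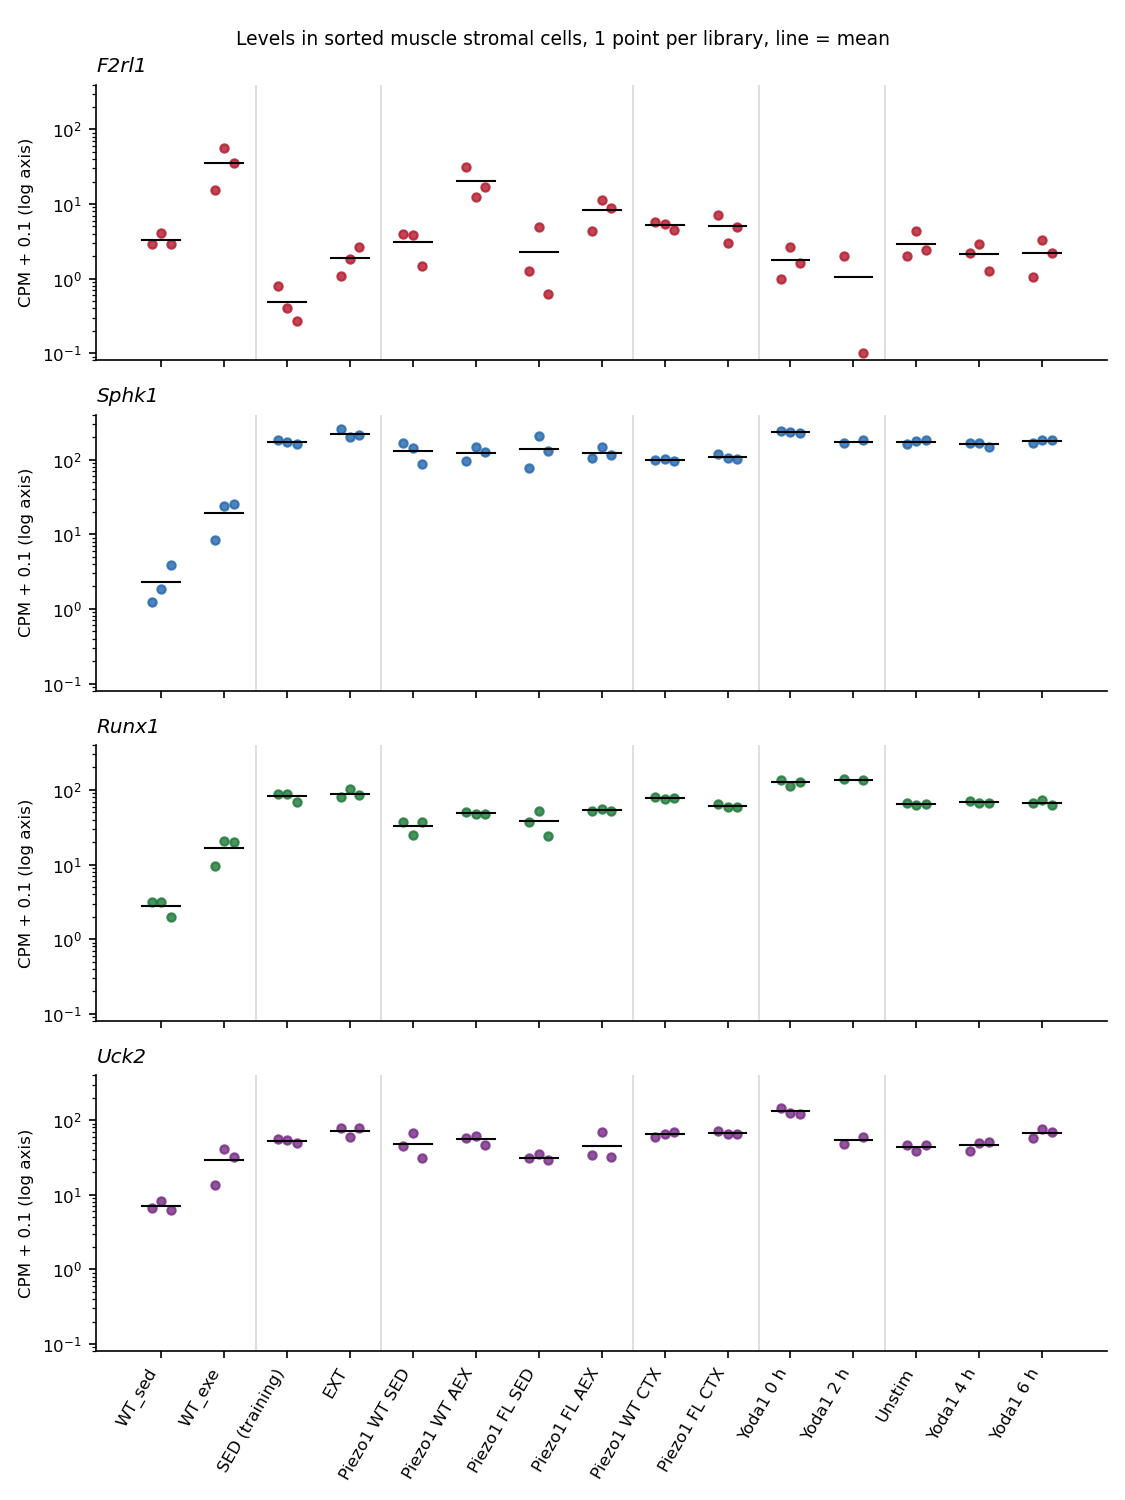
Level of each gene (CPM + 0.1, log axis, 1 scaling over all stromal libraries) in every sorted stromal library of the 15 groups, with a line at the group mean and grey lines between cohorts. Sphk1 and Runx1 are lower in all 6 WT_sed and WT_exe libraries than in every other library, while F2rl1 is highest in WT_exe and Piezo1 WT AEX.

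The resting level of 3 of the genes differed between cohorts by more than it differed between the WT_exe and WT_sed means. With 1 TMM scaling over the 44 stromal libraries, Sphk1 averaged 2.21 ± 1.35 CPM (SD, n = 3) in WT_sed and 19.0 ± 9.22 CPM (n = 3) in WT_exe. The lowest of the other 38 libraries stood at 78.1 CPM, above the highest WT_exe library at 25.1 CPM. Runx1 averaged 2.64 ± 0.68 CPM in WT_sed and 16.6 ± 6.3 CPM in WT_exe, and its highest WT_exe library (20.7 CPM) was below the lowest library elsewhere (24.1 CPM). For these 2 genes, sedentary libraries of every other cohort had more transcript than the WT_exe libraries. The genes were chosen on the WT_sed and WT_exe values, so this is described only.

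Over the 9 sedentary libraries of the other cohorts, Sphk1 averaged 148 CPM, a ratio of 67.2 to WT_sed. Runx1 averaged 51.1 CPM (ratio 19.3) and Uck2 44.0 CPM (ratio 6.37). F2rl1 went the other way, at 1.86 CPM in those libraries and 3.2 CPM in WT_sed (ratio 0.58). Genes chosen for a rise over WT_sed are favoured to be low in WT_sed, so nothing is read from these ratios. All 6 libraries of the choosing cohort were below all 38 others for 7.29% of 8373 genes with a mean of at least 10 CPM, Sphk1 and Runx1 among them, and above all others for 3.34%. The labels do not say what else differed between the cohorts, and these ratios have no test.

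Some markers of other cells differed along that split. The 8 endothelial markers summed to 319 to 489 CPM in WT_sed and 227 to 272 CPM in WT_exe, against at most 176 CPM in any other stromal group. The stromal list did not follow the split, but it was lower in WT_exe (111591 to 165231 CPM) than in WT_sed (172056 to 181479 CPM). The 4 tenocyte markers (Scx, Tnmd, Mkx and Fmod) summed to 2.75 to 45.2 CPM in WT_sed and 15.9 to 71.4 CPM in WT_exe, against 98.4 to 2095 CPM in Piezo1 WT SED, 579 to 1524 CPM in the sedentary training controls and 56.1 to 268 CPM in Piezo1 FL CTX. Between 3 and 4 of the 4 were detected in a library, and Scx reached at most 0.15 CPM in WT_sed and 0.571 CPM in Piezo1 WT SED. The muscle fibre list (6 genes) summed to 54.9 to 86.3 CPM in WT_sed and 19.1 to 23.0 CPM in Piezo1 WT SED. The part of these markers in the cohort difference and in the choosing contrast was not tested.

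The order of the 15 stromal groups differed from gene to gene. F2rl1 was highest in WT_exe (35.4 ± 20.3 CPM, jointly scaled, n = 3), then Piezo1 WT AEX (20.1 ± 9.79) and Piezo1 FL AEX (8.12 ± 3.55), with the CTX groups next and the sedentary training controls lowest (0.39 ± 0.27). Only Piezo1 FL AEX and Piezo1 WT AEX did not overlap among neighbours in that order. Sphk1 was highest at Yoda1 0 h (236 ± 8.64 CPM) and in EXT (224 ± 27.8). Runx1 was highest at Yoda1 2 h (136 ± 2.67, n = 2) and Yoda1 0 h (126 ± 10.6), which did not overlap. Uck2 was highest at Yoda1 0 h (131 ± 13.5), above EXT (71.8 ± 11.4) with no overlap. Outside WT_sed and WT_exe, the 4 genes were thus not highest in the same group.

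Acute exercise was repeated in the Pdgfra-Cre cohort, and there F2rl1 rose in Piezo1 WT cells and the other 3 genes did not pass the test. F2rl1 was at 1.32, 3.65 and 3.44 CPM in Piezo1 WT SED and at 29.6, 11.6 and 16.0 CPM in Piezo1 WT AEX. All 3 exercised libraries were above all 3 sedentary ones. The log2 fold change was 2.75 ± 0.61 (SE, n = 3 and 3), with an adjusted p of 0.0371 by edgeR's quasi-likelihood test and a 95% interval of 1.47 to 4.03. The background was 0.992% of 14821 genes called, and 1 of the 4 members passed. Leaving out any 1 of the 6 libraries took F2rl1 over the threshold, with log2 fold changes of 2.28 to 2.99 and adjusted p of 0.0701 to 0.143. The sample titles of this cohort are shifted by 1 against the library names and the other labels, so each count column could be tied to a group by its name but not to 1 sample, and its libraries are called a, b and c here. Under the titles, the 4 columns numbered 1 would belong to other groups. Without them the log2 fold change of F2rl1 was 1.96 with an adjusted p of 0.262, past the threshold no longer.

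Markers moved with the F2rl1 result in Piezo1 WT. The stromal list summed to 177082 to 213983 CPM in Piezo1 WT SED and 143062 to 168388 CPM in Piezo1 WT AEX, with all 12 genes detected. In Piezo1 FL it summed to 180252 to 215385 CPM and 180492 to 191070 CPM. The 8 endothelial markers, of which 4 to 8 were detected, summed to 145 to 176 CPM and 66.7 to 114 CPM in WT, and to 101 to 135 CPM and 68.3 to 126 CPM in FL. The part of these shifts in the F2rl1 difference was not tested.

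Sphk1 did not pass the test in that cohort, at 81.7, 155 and 134 CPM in Piezo1 WT SED and 90.8, 139 and 119 CPM in Piezo1 WT AEX, and the groups overlapped. Its log2 fold change was -0.09, with a 95% interval of -0.71 to 0.54. Runx1 was at 35.1, 35.1 and 23.2 CPM sedentary and at 47.5, 45.5 and 45.0 CPM after AEX. The Runx1 groups did not overlap, but the log2 fold change of 0.56 ± 0.23 had an adjusted p of 0.317 by edgeR. Its 95% interval was 0.07 to 1.05. Uck2 was at 29.0, 42.4 and 62.0 CPM sedentary and 54.5, 58.9 and 44.1 CPM after AEX, overlapping, with a log2 fold change of 0.24 and an interval of -0.35 to 0.83. The median of the 4 members was 0.40, beside -0.01 over all genes tested.

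In Piezo1 FL cells, F2rl1 was at 1.11, 4.55 and 0.495 CPM sedentary and at 4.06, 10.8 and 8.26 CPM after AEX. The lowest exercised library was below the highest sedentary one. The log2 fold change was 1.90 ± 0.62 (n = 3 and 3), with an unadjusted p of 0.0063 and an adjusted p of 0.377 by edgeR, so it did not pass. The background was 0.162% of 14821 genes, and 0 of the 4 members were called. Without the filter on low counts the adjusted p for F2rl1 was 0.00961. Runx1 (34.9, 49.4 and 22.7 CPM against 49.8, 53.5 and 49.6 CPM), Uck2 (28.9, 32.4 and 27.4 against 32.3, 66.6 and 30.0) and Sphk1 (73.8, 193 and 125 against 101, 139 and 107) had log2 fold changes of 0.52, 0.54 and -0.18. The Runx1 groups did not overlap, and none of the 3 passed the test. For comparisons of treatments or genotypes, the share of all genes without overlap is not given, so a lack of overlap is description only.

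The exercise response of F2rl1 was not shown to differ between the genotypes. The difference of the responses, FL minus WT, was -0.85 ± 0.85 on the log2 scale (adjusted p = 0.936 by edgeR), with 0% of genes called, 884 at an unadjusted p under 0.05 and 2 called by DESeq2. Its value ranged from -1.31 to 0.52 without a library in turn, and the sign turned without library b of Piezo1 FL SED. After AEX alone, every Piezo1 FL library was below every Piezo1 WT library (log2 fold change -1.30 ± 0.57, unadjusted p = 0.0336, adjusted p = 0.906, by edgeR, with 0% of genes called, 814 at an unadjusted p under 0.05 and 3 called by DESeq2). In sedentary mice the F2rl1 difference was -0.46 ± 0.63 with overlapping groups, and 0.00675% of genes were called. Sphk1, Runx1 and Uck2 differed between genotypes by -0.01, 0.15 and -0.29 after AEX and by 0.08, 0.19 and -0.59 at rest, none past the threshold. These comparisons share libraries of the same 4 groups.

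Around F2rl1, its receptor family has 3 other members: F2r (PAR1, the main thrombin receptor), F2rl2 and F2rl3. F2r averaged 69.6 ± 8.64 CPM in WT_sed and 164 ± 31.4 CPM in WT_exe, and 133 ± 32.0 against 200 ± 21.2 CPM in Piezo1 WT SED and AEX (n = 3 each). F2rl2 and F2rl3 averaged under 1 CPM in all 4 groups. In Piezo1 WT AEX, where 0.992% of 14821 genes were called, 1 of the 3 tested receptors rose, F2rl1 itself. Of 14 tested genes for proteases and inhibitors that act around PAR2, 0 rose and 1 fell, the secreted serine protease Htra1 (log2 fold change -0.84, adjusted p = 0.0347 by edgeR). In the contrast that chose the members, F2r had a log2 fold change of 1.24 and was called higher, beside 0.736% of 12777 genes called. F2rl1 was chosen on that contrast, so nothing is read from its own rise there.

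For the pathways of the other 3 genes after AEX in Piezo1 WT cells, the background was again 0.992% of genes called. None of 27 tested genes of sphingosine 1-phosphate metabolism and signalling and none of 12 RUNX factors and partners were called in either direction. Their median log2 fold changes were -0.05 and -0.01, beside -0.01 over all genes. Of 24 genes of pyrimidine synthesis and salvage, 1 rose, Nme1 (log2 fold change 1.34, adjusted p = 0.00296 by edgeR), a nucleoside diphosphate kinase. 1 fell, Cmpk2 (-1.37, 0.0461), a mitochondrial nucleotide kinase. In Piezo1 FL cells 0 genes of the 5 lists were called, where 0.162% of all genes were.

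**Figure D2:**
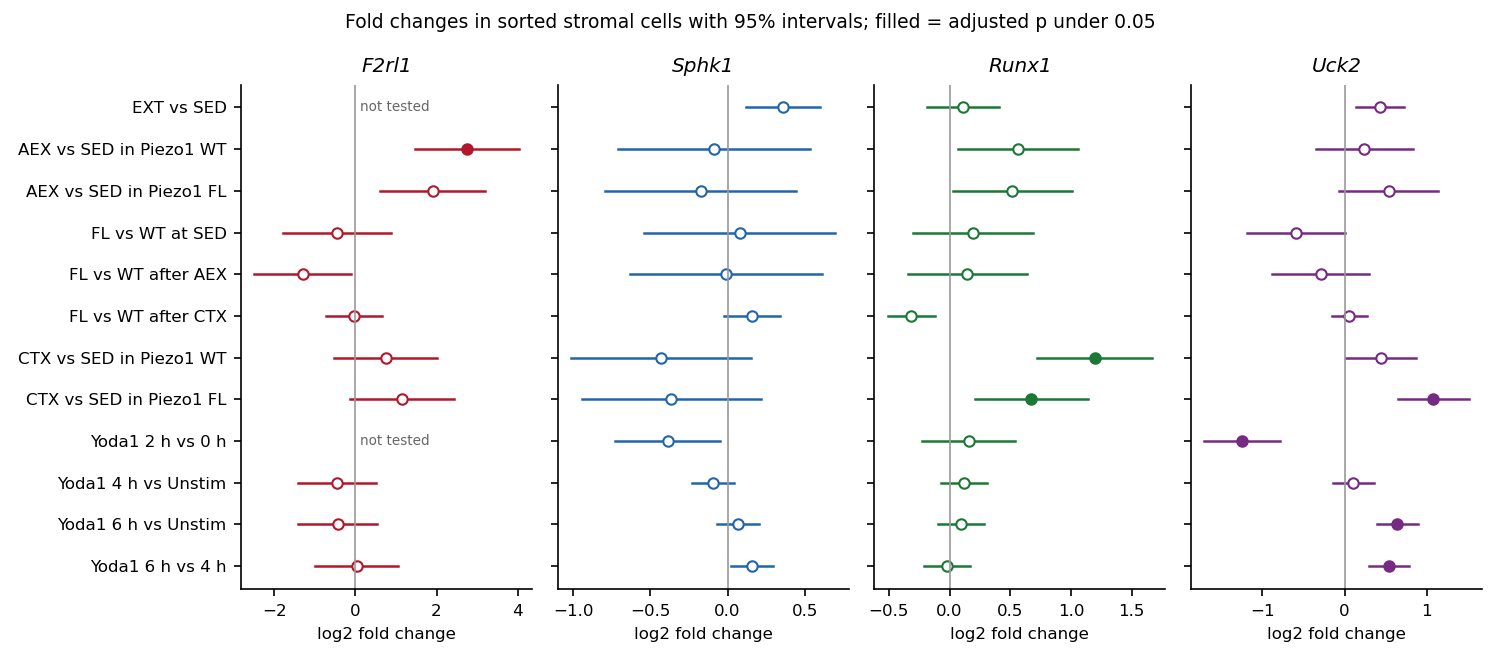
Log2 fold change of each gene in the 12 stromal comparisons that did not choose the genes, with 95% intervals. Filled points passed an adjusted p of 0.05: F2rl1 after AEX in Piezo1 WT, Runx1 after CTX in both genotypes, and Uck2 after CTX in Piezo1 FL and under Yoda1 at 2 h (lower) and 6 h (higher); the x axes differ between genes.

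Exercise training (EXT) against its own sedentary controls gave 0 of the 3 members tested, with 0.484% of 12802 genes called. F2rl1 did not pass the filter on low counts. It was at 0.873, 1.55 and 2.24 CPM in EXT (6, 11 and 16 counts) and at 0.613, 0.274 and 0.148 CPM in SED (4, 2 and 1 counts). The groups did not overlap, and an exact two-sided permutation test gave p = 0.1, the smallest it can give with 3 against 3. Sphk1 was at 225, 178 and 188 CPM trained and 164, 153 and 144 CPM sedentary, also without overlap (log2 fold change 0.36 ± 0.11, adjusted p = 0.181 by edgeR). Uck2 was at 69.4, 51.8 and 67.9 against 49.3, 47.7 and 43.3 CPM (0.43 ± 0.14, adjusted p = 0.199 by edgeR), again without overlap. Runx1, at 70.0, 91.1 and 73.8 against 78.6, 78.8 and 60.2 CPM, overlapped (0.11 ± 0.14). None of the tested genes of the 5 lists were called.

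On day 1 after cardiotoxin, Runx1 was higher than in sedentary MmSCs in both genotypes and Uck2 in Piezo1 FL. Runx1 was at 73.0, 70.5 and 72.8 CPM in Piezo1 WT CTX and 61.3, 56.1 and 56.3 CPM in Piezo1 FL CTX, above all sedentary libraries of its genotype. The log2 fold changes were 1.19 ± 0.22 (adjusted p = 0.000356) in WT and 0.67 ± 0.22 (adjusted p = 0.0196) in FL by edgeR. Uck2 was at 66.7, 62.6 and 61.6 CPM in FL CTX, above its sedentary libraries (1.08 ± 0.20, adjusted p = 0.000375 by edgeR). In WT CTX it was at 55.1, 62.0 and 66.2 CPM, overlapping the sedentary range (0.44 ± 0.20, adjusted p = 0.0828 by edgeR).

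The background is wide in these comparisons: 45.9% of 14712 genes were called in WT and 46.6% in FL, and 1 and 2 of the 4 members passed. The Runx1 call in FL was lost without sedentary library a or c or the first CTX library (adjusted p of 0.057 to 0.0893 by edgeR), with only these libraries fitted (0.051) and without the 4 columns numbered 1 (0.0572). Uck2 in WT passed without sedentary library c (0.77, adjusted p = 0.0033 by edgeR). The stromal marker list summed to 177082 to 213983 CPM in Piezo1 WT SED and to 63639 to 70705 CPM in Piezo1 WT CTX, with all 12 genes detected. Whether injured and sedentary cells were sorted and sequenced together is not stated, so injury and occasion cannot be told apart, and the part of marker change was not tested. The sedentary libraries are those of the exercise comparison above.

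F2rl1 after CTX was at 5.17, 4.93 and 4.18 CPM in WT and 6.67, 2.71 and 4.56 CPM in FL. The WT values lay above all 3 sedentary values, and the log2 fold change of 0.74 ± 0.60 did not pass (adjusted p = 0.330 by edgeR). The FL fold change was 1.15 ± 0.61 (adjusted p = 0.135), and 2.51 (adjusted p = 0.00264 by edgeR) without sedentary library b. Sphk1 was at 90.5, 95.5 and 91.7 CPM in WT and 113, 99.0 and 97.9 CPM in FL, with log2 fold changes of -0.43 and -0.36. It passed as lower without the 4 columns numbered 1 (-0.66 in WT, adjusted p = 0.00567 by edgeR, and -0.66 in FL, 0.00502) and, in FL, without sedentary library a (-0.66, 0.0302).

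No member passed between the genotypes after CTX, where 1.79% of 12957 genes were called. Runx1 came nearest: all 3 FL libraries were below all 3 WT libraries (log2 fold change -0.32 ± 0.09, adjusted p = 0.102 by edgeR). The Sphk1 groups did not overlap either (0.16 ± 0.09, adjusted p = 0.448 by edgeR). The difference of the responses to CTX did not pass for any member, with Uck2 at 0.64 ± 0.28 FL minus WT (adjusted p = 0.657 by edgeR) and Runx1 at -0.52 ± 0.31 (0.769), against 0.0136% of genes called. This difference of responses was added after the values were seen.

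The lists around these genes are read against the 45.9% of all genes called after CTX in Piezo1 WT. There, 5 of 12 RUNX factors and partners rose and 4 fell. The risers included Runx2, the bone and cartilage factor (log2 fold change 1.86), and Ets1, a transcription factor that binds beside RUNX proteins (2.20). Cbfa2t3, a corepressor, and Runx3 fell to averages of 0.471 and 0.265 CPM (n = 3 each). Of 25 pyrimidine genes 14 rose and 4 fell, with a median of 1.01 beside -0.10 over all genes tested. Tyms, which makes thymidylate, rose by 3.68 (from 16.0 ± 0.422 to 205 ± 11.45 CPM, n = 3 each). The sphingosine list had 7 of 27 higher, among them the receptor S1pr1 (2.02), and 6 lower. Of 15 protease and inhibitor genes 5 rose and 3 fell. The counts of the sphingosine and protease lists are near the background. F2r rose (0.51), as did the urokinase gene Plau (1.46).

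Yoda1 did not raise F2rl1, Sphk1 or Runx1 past the threshold at any time. At 2 h, Uck2 was lower than in the vehicle of its cohort, at 46.6 and 60.1 CPM against 142, 117 and 119 CPM, with no overlap (log2 fold change -1.24 ± 0.21, n = 2 and 3, adjusted p = 0.00469 by edgeR). It did not pass without the first 0 h library (-1.14, adjusted p = 0.0551 by edgeR). Of 12782 genes 11.2% were called, and of the 3 members tested 1. The 2 h libraries had total counts of 1806248 and 3416913, against 4667436 to 5621061 at 0 h, so depth and treatment cannot be told apart. Sphk1 was at 161 and 185 CPM against 236, 220 and 223 CPM, also without overlap (-0.39 ± 0.15, adjusted p = 0.129 by edgeR). Runx1 was at 134 and 136 CPM against 129.7, 106 and 127 CPM, above all of them (0.16 ± 0.17). F2rl1 did not pass the filter: 6 and 0 counts at 2 h (the 0 allows up to 1.66 CPM) and 4, 13 and 7 counts at 0 h. Piezo1 itself was at 30.8 and 22.4 CPM at 2 h against 127, 94.4 and 123 CPM at 0 h. Markers of mural cells (5 genes, 4 or 5 detected) summed to 77.1 to 96.3 CPM at 2 h and 158.9 to 232 CPM at 0 h, and their part in the Uck2 difference was not tested.

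At 4 h no member passed, with 5.71% of 13756 genes called. Uck2 was at 43.2, 56.1 and 58.7 CPM against 52.2, 42.4 and 51.9 CPM in Unstim (log2 fold change 0.10 ± 0.12). The Runx1 groups did not overlap (80.7, 75.6 and 76.7 CPM against 73.4, 69.7 and 71.7 CPM), with a log2 fold change of 0.12 ± 0.09. At 6 h Uck2 was at 64.9, 86.0 and 77.7 CPM, above all Unstim and all 4 h libraries. It was higher than in Unstim by 0.64 ± 0.12 (adjusted p = 0.000191 by edgeR, with 13.2% of genes called) and higher than at 4 h by 0.54 ± 0.12 (adjusted p = 0.00253, 10.9% called). The 4 h and 6 h comparisons share the Unstim libraries. The 2 h and 6 h cells had vehicles of different cohorts, whose Uck2 levels were 142, 117 and 119 CPM and 52.2, 42.4 and 51.9 CPM, so the opposite directions were not compared by a test. The stromal list summed to 135447 to 141892 CPM at 6 h, 166634 to 176511 CPM at 4 h and 179435 to 193742 CPM in Unstim, and its part in the Uck2 rise was not tested.

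At 6 h the intervals for Sphk1 (-0.07 to 0.20) and Runx1 (-0.09 to 0.28) left out a change as large as that of Uck2. F2rl1 was at 1.08, 3.65 and 2.33 CPM against 2.11, 4.70 and 2.58 CPM in Unstim, overlapping (-0.43 ± 0.48). Of 24 pyrimidine genes 2 rose and 2 fell at 6 h, where 13.2% of all genes were called. Uck2 and Cad, the enzyme that opens new pyrimidine synthesis, rose (Cad by 0.54), while the nucleoside transporter Slc29a1 (-0.53) and the pyrimidine-degrading Dpyd (-0.85) fell. In the sphingosine list 1 of 28 rose and 4 fell, among them the ceramide-forming Smpd1 (-0.74) and the receptor S1pr2 (-0.39). F2r fell by 0.20 at 6 h and by 0.41 at 4 h.

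In whole muscle, Uck2, Sphk1 and Runx1 were higher in injured TA of Piezo1 WT mice than in uninjured quadriceps and fell again during repair. Uck2 was at 107, 110, 90.9 and 106 CPM on day 1, at 20.1, 36.1 and 28.4 CPM on day 3 and at 18.0, 12.9 and 10.9 CPM on day 7. Sphk1 was at 12.8, 20.2, 18.0 and 27.9 CPM on day 1, 7.47, 9.73 and 10.0 CPM on day 3 and 3.4, 2.15 and 2.0 CPM on day 7. For both genes the 3 days did not overlap. Runx1 was at 78.7, 61.4, 58.1 and 72.7 CPM on day 1, 94.0, 72.7 and 76.9 CPM on day 3 and 18.2, 30.7 and 26.9 CPM on day 7, so days 1 and 3 overlapped and day 7 lay below. Quadriceps held 3.46, 5.48 and 7.69 CPM of Uck2, 1.44, 1.17 and 1.42 CPM of Sphk1 and 2.88, 1.56 and 1.99 CPM of Runx1. Quadriceps and TA levels were scaled in separate fits, so their ratios differ from the fold changes below, which come from a joint fit.

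From day 1 to day 3 in Piezo1 WT, Uck2 fell by 1.87 ± 0.22 on the log2 scale (adjusted p = 6.5e-07 by edgeR) and Sphk1 fell by 1.12 ± 0.29 (0.00495), while Runx1 had 0.26 ± 0.18 (0.301). From day 3 to day 7 all 3 fell. Sphk1 fell by 1.85 ± 0.36 (adjusted p = 0.00016 by edgeR), Runx1 fell by 1.68 ± 0.20 (4.61e-07) and Uck2 fell by 1.02 ± 0.24 (0.0012). The background was 26.8% and 42.5% of 15499 genes called, so calls are common here. Against quadriceps, Runx1 was higher by 4.23, 4.50 and 2.82 on days 1, 3 and 7. Sphk1 was higher by 3.11 and 2.00 and Uck2 by 3.46 and 1.60 on days 1 and 3, and neither passed on day 7 (0.15 and 0.58), although Uck2 did without the filter (0.62, adjusted p = 0.022 by edgeR) and without the third quadriceps library (0.88, 0.0414). The background of these comparisons was 59.2%, 61.7% and 29.2% of 14674 genes. Muscle and injury cannot be told apart in them, and all 3 share the quadriceps libraries.

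The make-up of the muscle moved over the same days. In whole tissue, fewer cells of a type and less RNA per cell cannot be told apart. In Piezo1 WT TA the 10 leukocyte and macrophage markers summed to 3027 to 4535 CPM on day 1, 7138 to 9143 on day 3 and 978 to 1696 on day 7, with 157 to 197 in quadriceps and all 10 detected throughout. The 6 muscle fibre markers summed to 79243 to 98946 CPM, 35043 to 58189 and 205412 to 237008. Neutrophil markers were highest on day 1 (172 to 294 CPM) and satellite cell and myoblast markers on day 3 (1981 to 2199 CPM). The part of these shifts in the course of Uck2, Sphk1 and Runx1 was not tested.

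F2rl1 was near the limit of detection in whole muscle and did not pass the filter on low counts there. The 3 Piezo1 WT quadriceps libraries had 0 counts, which allows up to 0.432 CPM in the shallowest. TA of Piezo1 WT had 12, 7, 3 and 8 counts on day 1, 3, 4 and 8 on day 3, and 1, 3 and 6 on day 7. TA of KO mice had 6, 9, 10 and 4, then 2, 0 and 1, then 5, 2 and 5 counts. Without the filter, F2rl1 passed as lower on day 3 than on day 1 in KO muscle (adjusted p = 0.0243 by edgeR) and as higher in WT TA than in quadriceps on day 1 (0.00413) and day 3 (0.0272). With all libraries in, no other comparison of F2rl1 in muscle passed without the filter. With a library left out, F2rl1 could pass the filter, and it was then called in KO muscle between days 3 and 7. At so few counts no fold is given.

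**Figure D3:**
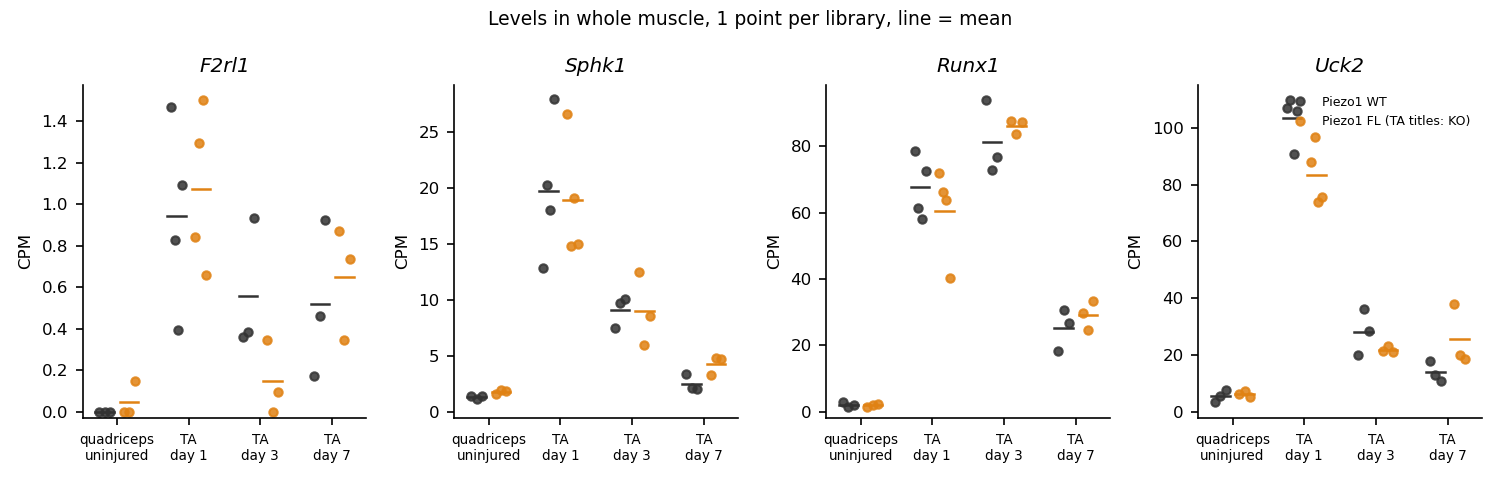
CPM of each gene in every whole-muscle library of Piezo1 WT (dark) and Piezo1 FL (orange, titled KO in TA) mice, in uninjured quadriceps and in TA 1, 3 and 7 days after cardiotoxin, with lines at the means. Uck2 and Sphk1 are highest on day 1, Runx1 on days 1 and 3, and F2rl1 stays below 2 CPM. Quadriceps and TA were scaled in separate fits, so their heights are not on 1 scale.

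TA of KO mice followed the same order of days for Sphk1 and Runx1. Sphk1 was at 26.6, 14.8, 19.1 and 15.0 CPM, then 12.4, 5.94 and 8.55, then 3.31, 4.81 and 4.7 CPM. It fell by 1.10 ± 0.29 from day 1 to day 3 (adjusted p = 0.00312 by edgeR) and by 1.03 ± 0.33 from day 3 to day 7 (0.0119). Runx1 was at 72.0, 66.3, 63.9 and 40.3 CPM, then 87.7, 83.7 and 87.3, then 29.8, 24.7 and 33.4 CPM. Runx1 rose by 0.51 ± 0.18 to day 3 (0.024) and fell by 1.55 ± 0.20 to day 7 (5.51e-07). The background was 44.6% and 52.7% of genes called. The rise of Runx1 was lost without the fourth day 1 library (0.36, adjusted p = 0.0847 by edgeR) and without the first or the third day 3 library (0.49 and 0.50). The second fall of Sphk1 was lost without the first library of day 3 (-0.75, 0.0768) or of day 7 (-0.89, 0.0559).

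Uck2 in KO muscle fell by 1.93 ± 0.22 to day 3 (adjusted p = 1.65e-07 by edgeR), from 88.1, 96.6, 73.7 and 75.5 CPM to 21.2, 23.2 and 21.1 CPM. It stood at 37.8, 20.1 and 18.5 CPM on day 7, overlapping day 3 (0.22 ± 0.23, adjusted p = 0.453 by edgeR). The difference from WT in that second step was 1.24 ± 0.33 on the log2 scale with an adjusted p of 0.0549, short of the threshold, with 1.64% of genes called. DESeq2 gave an adjusted p of 0.0206 and the fit without a filter 0.00122. It also passed without the first WT library of day 3, the first WT library of day 7 or the third KO library of day 7 (1.43 to 1.46, adjusted p of 0.0171 to 0.0337). Over days 1 to 7 the difference was 1.18 ± 0.31 (adjusted p = 0.371 by edgeR, 0.0387% called; 0.00462 without the filter), and over days 1 to 3 it was -0.06 ± 0.29 (0.941, 5.85% called). These 3 differences were added after the values were seen and share their libraries.

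At single days no member passed between KO and WT. On day 7 the KO values of Uck2 were all above the WT values (log2 fold change 0.87 ± 0.24, unadjusted p = 0.0016, adjusted p = 0.971 by edgeR), where 0% of genes were called, 737 had an unadjusted p under 0.05 and DESeq2 called 0. Sphk1 there was 0.77 ± 0.38. On day 1 Uck2 was at -0.31 ± 0.19 and on day 3 at -0.37 ± 0.23, with 0.0774% and 8.98% of genes called. Runx1 lay between -0.16 and 0.21 on the 3 days. On day 3 the muscle fibre list summed to 4442 to 15958 CPM in KO and 35043 to 58189 CPM in WT with all 6 genes detected, and its part in the day 3 values was not tested.

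Among the pathway genes, calls between KO and WT muscle were made on day 3, with 0 on days 1 and 7, and the background was 0.0774%, 8.98% and 0% of genes on days 1, 3 and 7. Of 25 pyrimidine genes 5 were higher in KO, with Tyms at 1.07, Dctd, a deoxycytidylate deaminase, at 1.03, Umps at 0.90 and Dck, deoxycytidine kinase, at 0.78. Of 29 sphingosine genes 2 were higher, the receptor S1pr3 (0.55) and Degs1 (0.47), and 2 lower, the ceramide synthase Cers1 (0.755 ± 0.518 CPM against 4.33 ± 2.58 CPM, n = 3 each) and Smpd1 (-0.77). Of 13 RUNX factors and partners, Ets1 was higher (0.67), and Cbfa2t3 (-0.83) and Hipk2 (-0.61) were lower. Of 22 protease and inhibitor genes 1 was lower, Prss23 (-0.57). Of the 3 receptors 0 were called.

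In uninjured quadriceps, heart and liver no member passed between Piezo1 FL and WT. The background was 0% in quadriceps, 0% in uninjured heart and 0% in liver by edgeR. At an unadjusted p under 0.05 there were 771, 778 and 525 genes, and DESeq2 called 0, 10 and 15. Uck2 was the member with the most transcript in heart, at 40.6, 36.0 and 41.5 CPM in uninjured WT and 44.7, 34.1 and 46.3 CPM in FL. On day 3 after CTX to skeletal muscle it was at 42.9, 36.9 and 39.3 CPM in WT hearts and at 37.4, 23.3 and 24.3 CPM in FL hearts. The first FL heart was high and overlapped the WT range.

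The FL heart of day 3 against WT gave a Uck2 log2 fold change of -0.49 ± 0.17 (adjusted p = 0.120 by edgeR, 3.92% of 18433 genes called), and against uninjured FL hearts -0.56 ± 0.17 (0.0773, 4.75% called). Neither passed. Without the first FL heart of day 3 both did (-0.75, adjusted p = 0.00734 by edgeR, and -0.82, 0.00407). The second was also called by DESeq2 (-0.56, 0.0306) and without the filter (-0.57, 0.0151). In WT hearts the change was 0.01 ± 0.17 with 0.103% of genes called, and the difference of the changes, added after the values were seen, was -0.57 ± 0.25 (adjusted p = 0.411 by edgeR, 0% called, 2085 genes at an unadjusted p under 0.05 and 124 called by DESeq2). Sphk1 ran from 2.49 to 5.09 CPM and Runx1 from 1.64 to 4.54 CPM over the 12 hearts. F2rl1 had 0 to 13 counts a heart. None of these 3 genes passed in a heart comparison.

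The liver groups had the lowest printed means of Sphk1, Runx1 and Uck2, with Uck2 at 1.47 to 8.24 CPM, Sphk1 at 0 to 1.23 CPM and Runx1 at 0.133 to 1.04 CPM over 8 libraries. For Uck2 the means were 4.42 CPM in WT and 5.01 CPM in FL liver, near the 5.54 CPM of WT quadriceps. Liver and quadriceps were scaled in separate fits, so the order of Uck2 between them is not settled. F2rl1 had 0 counts in all 4 WT livers, which allows up to 0.0996 CPM. The FL livers had 0, 0, 1 and 8 counts.

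Compared between genes per kilobase of merged exon, Sphk1 led in every stromal group outside the choosing cohort, at 19.4 to 47.4 CPM per kb. F2rl1 was the lowest of the 4 there except in Piezo1 WT AEX (6.96 CPM per kb, above Runx1 at 3.82). In WT_exe F2rl1 led, at 15.5 CPM per kb, and Sphk1 stood at 4.77. In tissue the leader was Uck2 in quadriceps (1.01 CPM per kb in WT), heart (7.2) and liver (0.81), and in TA on day 1 (18.9). Runx1 led in WT TA on day 3 (6.75).

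**Figure D4:**
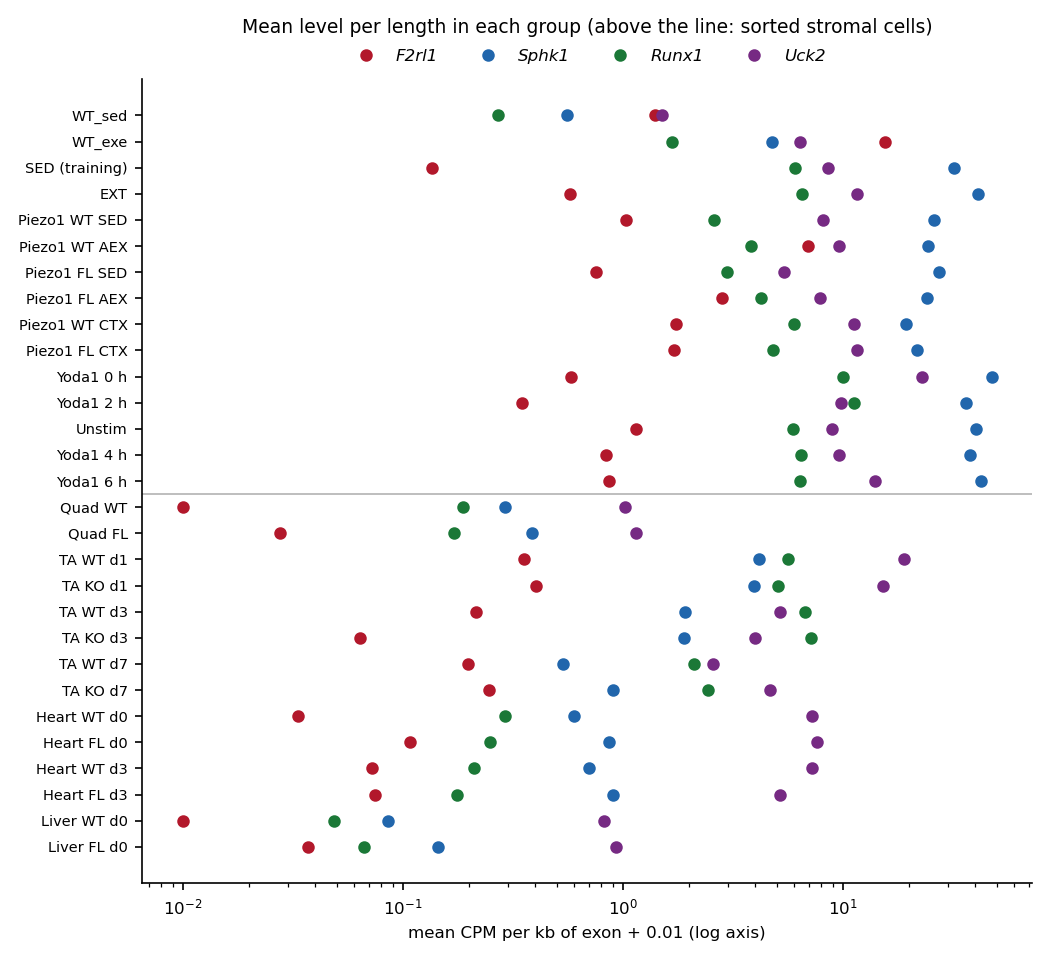
Mean level of each gene per kilobase of merged exon (CPM per kb + 0.01, log axis) in the 29 groups, with sorted stromal cells above the grey line and whole tissues below. Sphk1 is rightmost in all stromal groups but WT_sed and WT_exe, and Uck2 is rightmost in quadriceps, heart and liver. Each cohort or tissue was scaled in a fit of its own, so genes are compared within a group.

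Over the 38 stromal libraries outside the choosing cohort, the genes did not form 1 pattern. With each cohort centred on its own mean of log2(CPM + 1), Pearson r between members was 0.54 for F2rl1 and Runx1, 0.48 for Sphk1 and Uck2, 0.44 for F2rl1 and Uck2 and 0.21 for F2rl1 and Sphk1. It was 0.05 for Runx1 and Uck2 and 0.01 for Sphk1 and Runx1. These are descriptions over libraries that share cohort, treatment and depth. Among 8025 or 8026 genes with a mean of at least 10 CPM, the most like F2rl1 were Timp1 (0.85), an inhibitor of matrix metalloproteases, Adam12 (0.83), Eef1g (0.83), Nme1 (0.81) and the matrix protein Tnc (0.80). For Sphk1 they were Slc39a6 (0.74), Ccl8, Map2k1, Fgfr1 and Mt1 (0.63). For Runx1 they were Prg4 (0.74), the joint lubricant, Ltbp2, Rbbp8, Tnc and Cycs (0.65). For Uck2 they were Tmem214 (0.81), Hspa4, Cd44, Pgd and Rabl6 (0.77). Tnc alone stood in 2 of the 4 lists. F2rl1 itself averaged 4.17 CPM over these libraries, under the limit set for the other genes, so its r values rest on low counts.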

How the data were processed

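RNA of sorted stromal cells and whole tissues was sequenced from low-input libraries. The authors deposited whole-number counts of reads per gene, made with STAR 2.7.3a, featureCounts (version not given in the sources used here) and the mm10 build, per the submitters' processing notes. Of the 90 count columns, 78 matched 1 sample by name and 12, the AEX and genotype cohort, matched only a group. Of 55011 symbols, 96.2% matched GENCODE M21. Across 97 replicate pairs the smallest chi-square per gene was 2.61, so no pair agreed within sampling noise.

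The libraries of a cohort, and those joined for a comparison across cohorts or days, were fitted together with edgeR 4.0.16 (limma 3.58.1, R 4.3.3). Genes were kept by filterByExpr (minimum count 10), libraries were scaled by TMM, and edgeR's quasi-likelihood test was run in its robust form. Adjustment was by Benjamini-Hochberg over all genes, with a threshold of 0.05. The code was tested on simulated data. Alternatives were RLE scaling, no filter, DESeq2 1.42.0, only the libraries compared, each library left out and a replicate block. Of 35 comparisons, 5 differences of responses were added after seeing the data, as was the fit without the 4 columns numbered 1. The text names the 4 members, Piezo1, up to 4 called genes per list and comparison by size of log2 fold change, and the 5 genes most like each member. Some of the named list genes lie at low levels, and Cers1, Cbfa2t3 and Runx3 are given by level. The members and the lists were chosen with earlier results of these data known.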

Additional observations from a re-analysis of the deposited data

Results flagged for a closer look

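F2rl1 in Piezo1 FL liver had 1 library far from the rest of its group, at 0.267 CPM (8 counts), with the other 3 at 0, 0 and 0.0292 CPM. The rule was applied only to groups of at least 4 libraries. Its rate of about 1 in 20 by chance is for normally spread values, which counts this near 0 are not.

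Runx1 lay in opposite directions between the genotypes after the 2 treatments, and neither difference passed (adjusted p = 0.984 after AEX and 0.102 after CTX by edgeR). Every Piezo1 FL library was above every Piezo1 WT library after AEX (log2 fold change 0.15) and below every one after CTX (-0.32). The gap between these values is 0.46, and the difference was not tested.

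Uck2 went in opposite directions at the 2 times of Yoda1, each against its own vehicle. Every library was above the vehicle at 6 h (log2 fold change 0.64) and below it at 2 h (-1.24). The gap is 1.88, and the difference was not tested.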

How the results depend on the processing

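Across the alternatives of single member fold changes, 1400 kept their side of the threshold, 36 lost the call and 20 gained one. No called value changed sign, but changes of sign among values not called were not counted. Of the lost and gained calls, 32 losses and 9 gains came from leaving out a library. Many of these losses lie in the contrast that chose the genes, from which nothing is read. The number of members called was scored as the same in 380 settings and as moved in 29. In AEX against SED it went from 1 to 0 in Piezo1 WT, both without the 4 columns numbered 1 and without each library in turn (0 to 0), and in Piezo1 FL from 0 to 1 with no filter. For CTX against SED in Piezo1 WT it was 1, 2 without the columns numbered 1, and 1 to 2 without a library. In Piezo1 FL it was 2, 1 with only the libraries compared, and 1 to 3 without a library. Without a library in turn it was 0 to 1 for Yoda1 at 2 h (1 with all libraries), 1 to 3 for TA KO from day 3 to 7 (2), and 1 to 2 for WT TA on day 7 against quadriceps (1), where it was 2 with no filter. The third member called in TA KO from day 3 to 7 was F2rl1, as the adjusted p of Uck2 was at least 0.189 by edgeR there. The heart comparison of FL with WT on day 3 went from 0 to 1 with a replicate block and was 0 to 1 without a library. FL hearts on day 3 against uninjured went from 0 to 1 with no filter, with DESeq2 and with a replicate block, and were 0 to 1 without a library. The TA difference KO minus WT from day 3 to 7 went from 0 to 1 with no filter and with DESeq2, and was 0 to 1 without a library, and that from day 1 to 7 went from 0 to 1 with no filter. For TA KO from day 1 to 3 the number of members called was 3, and 2 with a replicate block, which was not scored as a move. The Runx1 call there was also lost without the fourth day 1 library and without the first or the third day 3 library. The cause was not tested in any of these.

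The replicate numbers did not pair the samples: same-numbered libraries deviated together with correlations of -0.17 to 0.31, and in no comparison was every pair above 0.1. The replicate block ended the Runx1 call in TA KO from day 1 to 3 (0.46, adjusted p = 0.0538 by edgeR) and gave Uck2 -0.70 (0.0106) and -0.76 (0.0067) in the 2 heart comparisons, and it changed no other member's call. It was not run in the AEX and genotype cohort, whose columns are tied to groups only. With the block, genes called went from 722 to 1358, 875 to 1419 and 0 to 110 in the heart comparisons (FL against WT, FL day 3 against uninjured, their difference), from 62 to 19 for EXT and from 1437 to 460 for Yoda1 at 2 h.

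RLE scaling moved no count of called genes by over 1.5 times. DESeq2 and the fit with no filter called more genes than the 94 of the choosing contrast (445 and 650), the 62 of EXT (224 and 344), the 147 and 24 of AEX in Piezo1 WT (456 and 398) and FL (78 and 119), and the 232 and 1 of FL against WT after CTX (391 and 586) and at rest (56 and 111). The same held for the 722, 875 and 19 of the heart comparisons on day 3 (FL against WT 1811 and 1457, FL against uninjured 1924 and 1643, WT against uninjured 88 and 122), the 12 of TA day 1 (49 and 92), and the TA differences with 254 (591 and 637) and 6 (17 and 72). With only the libraries compared, 722 became 10, 875 became 4, 19 became 63, 24 became 3, and the 1392 of TA day 3 KO against WT became 257. The CTX response difference went from 2 to 25, 63 with no filter and 63 without the columns numbered 1, which also took FL against WT at rest from 1 to 71. Where edgeR called 0 genes, the fit with no filter called 15 for the AEX response difference, 20 for FL against WT after AEX, 58 in uninjured heart, 338 for the heart difference, 20 in quadriceps, 1 in liver and 10 in TA on day 7. Without a library in turn, the genes called ran from 1 to 975 in the choosing contrast, 15 to 230 and 1 to 34 for AEX in Piezo1 WT and FL, 12 to 117 for EXT, 272 to 3047 for Yoda1 at 2 h, 24 to 1369 and 74 to 1462 in the FL heart comparisons, 431 to 1721 for TA day 3 KO against WT, 64 to 623 for the TA difference from day 3 to 7 and 413 to 1189 (906 with all libraries) for that from day 1 to 3. They ran from 98 to 387 for FL against WT after CTX, 0 to 91 for FL against WT at rest, 2 to 21 for the CTX response difference, 4 to 7 for WT hearts, 0 to 71 for the heart difference, 5 to 18 for TA day 1, 5 to 9 for the TA difference from day 1 to 7, and 456 to 656 (785 with all libraries) for Yoda1 at 4 h. At the depth of these libraries F2rl1 had under 20 counts in every whole-muscle library, which limits any statement on it there.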
